A study of Sus scrofa with 6 samples.

Results

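The genes described here encode the enzymes of glycolysis, the citrate cycle and glycogen turnover, measured in brain tissue of Rongchang pigs and of wild boars. They were chosen by name, as a list of 47 symbols that was matched to the Ensembl pig identifiers of the deposited table. Of the 47 symbols, 43 had a row, 1 row each, among 18225 identifiers in all. ALDOA, LDHB, CS and IDH3A had no matched row and were not analysed here. All 43 passed the filter on low values, which asked for at least 1 FPKM (a read density that corrects for transcript length and for the size of the library) in at least 3 of the 6 libraries. HK2 passed on Rongchang 1, wild boar 1 and wild boar 2 alone, and PCK2 on all libraries but Rongchang 2.

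The animals were 3 Rongchang pigs, a domesticated Chinese breed, and 3 wild boars, all 210 days old, with 1 poly(A) RNA library per brain. The labels name neither a brain region nor a treatment or genetic change, and say nothing of sex or rearing. The series title asks about immune differences between domesticated and wild animals, so energy metabolism is a side view of that comparison. Differences are Rongchang minus wild boar in log2(FPKM + 1), tested with limma over the whole table.

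Glycolysis splits glucose into pyruvate in the cytosol, with hexokinase, phosphofructokinase and pyruvate kinase as its regulated steps. Pyruvate is either reduced to lactate or carried into mitochondria, where the pyruvate dehydrogenase complex feeds it to the citrate cycle. The brain runs almost wholly on glucose and keeps a small glycogen store, held mainly by astrocytes, while neurons depend heavily on oxidative metabolism. Many of these enzymes come as paralogues with different kinetics and tissue ranges, and the name of a paralogue often records the tissue where it was first found.

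Sums of FPKM ran from 568921 to 687359 per library, and the depth behind them is unknown, since FPKM values carry no read counts. Mitochondrially encoded messenger RNAs took 45.2%, 39.9% and 30.0% of FPKM in Rongchang 1 to 3, and 46.8%, 41.0% and 43.6% in wild boar 1 to 3. On the first principal component, Rongchang 2 and wild boar 2 lay at 30.5 and 31.6, far from the remaining libraries at −19.8 to −10.5. Neuronal markers were abundant, with summed levels over the 7 of 8 with a row between 1952 and 2642 FPKM in Rongchang pigs and between 1854 and 2576 FPKM in wild boars. The summed astrocyte markers (5 of 7 with a row) lay between 964 and 1216 FPKM in Rongchang pigs and between 947 and 1209.8 FPKM in wild boars. The choroid plexus markers (2 of 5 with a row) summed to at most 3.15 FPKM except in wild boar 3, at 34.2 FPKM. The pituitary marker with a row (1 of 4) was at most 1.15 FPKM. Neuronal and astrocyte genes were thus abundant in every library.

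Energy-metabolism genes stood high among brain messenger RNAs. Of the 43, 36 (83.7%) had a mean of at least 10 FPKM over the 6 libraries, against 39.9% of the 13152 genes tested. At a mean of at least 100 FPKM there were 11 (25.6%), against 3.95% of the genes tested. GAPDH ranked 25 by mean FPKM among all identifiers, ALDOC 41, PKM 113 and TPI1 132. At the other end, HK2 ranked 13237 and PCK2 12864. Together the 43 genes summed to 5818 ± 1080 FPKM in Rongchang pigs and 5075 ± 482 FPKM in wild boars (SD, n = 3 each). The 8 genes from aldolase to pyruvate kinase made up most of this, with 4083 ± 914 FPKM in Rongchang pigs and 3539 ± 495 FPKM in wild boars, as the plot of levels by role shows. The 12 citrate cycle genes summed to 676 ± 117 FPKM in Rongchang pigs and 588 ± 46.8 FPKM in wild boars.

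**Figure D1:**
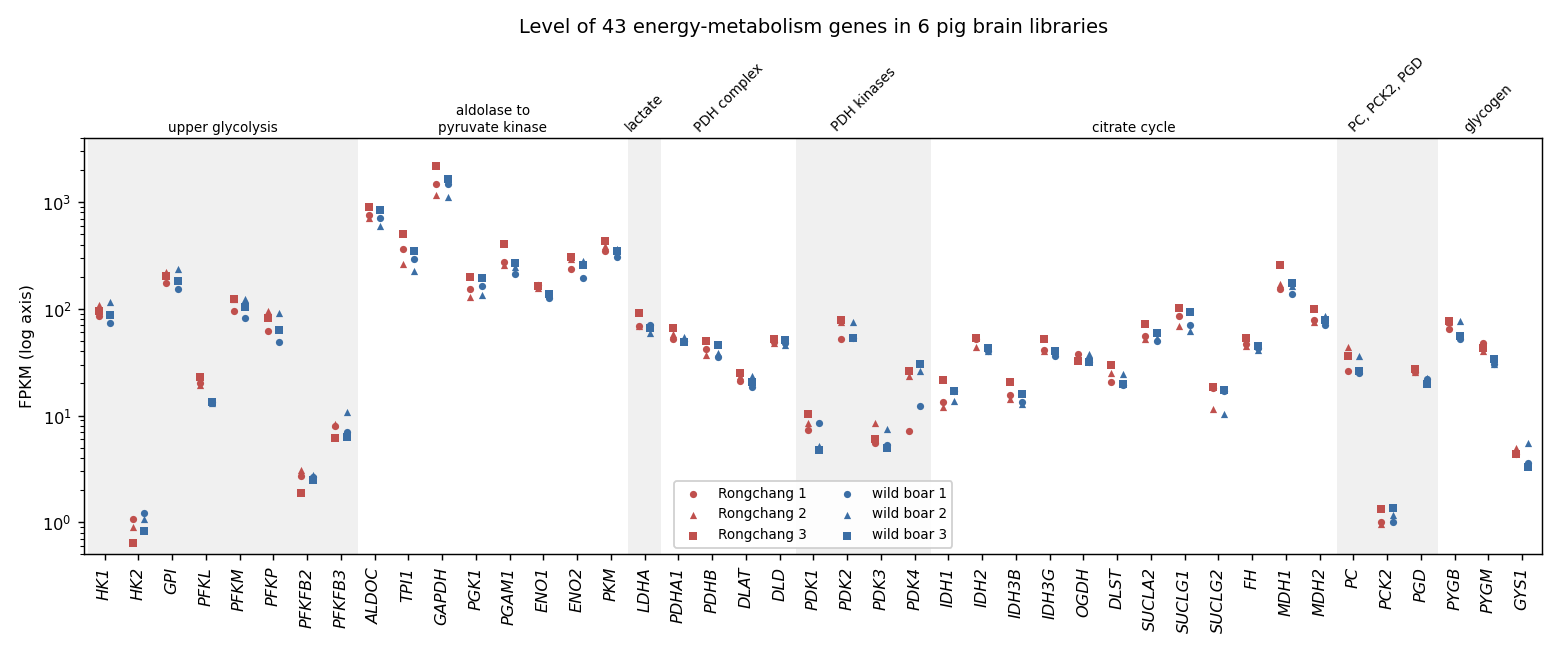
FPKM of each gene on a log axis, by role, with 1 point per library (Rongchang red and left, wild boar blue and right, symbols for animals 1 to 3). GAPDH lies highest at 1106 to 2193 FPKM, HK2 and PCK2 lie near 1 FPKM, and the breeds overlap for most genes.

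The upper steps of glycolysis were carried by HK1, GPI and the muscle and platelet phosphofructokinases. GPI, which turns glucose 6-phosphate into fructose 6-phosphate, was the most abundant at 175, 220.2 and 203 FPKM in Rongchang pigs and 152, 235 and 184 FPKM in wild boars. Its highest value in each breed was in animal 2, and the breeds overlapped. HK1, the hexokinase that docks on mitochondria in brain, averaged 97.1 ± 12.1 FPKM in Rongchang pigs and 92.2 ± 22 FPKM in wild boars. HK2, the form typical of insulin-sensitive tissues, averaged 0.87 ± 0.22 and 1.04 ± 0.20 FPKM in Rongchang pigs and wild boars. PFKM, the muscle-type phosphofructokinase, averaged 115 ± 16.2 FPKM in Rongchang pigs and 102 ± 20.6 FPKM in wild boars.

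PFKP, the platelet-type subunit of the same enzyme, stood at 61.5, 96.1 and 81.3 FPKM in Rongchang pigs and 48.4, 91.4 and 62.8 FPKM in wild boars. Animal 1 was lowest and animal 2 highest in both breeds, and the groups overlapped (log2 difference 0.26 ± 0.27 SE). PFKL (ENSSSCG00000028197), the liver-type subunit, stood at 20.0, 19.3 and 23.0 FPKM in Rongchang pigs and 13.4, 13.1 and 13.5 FPKM in wild boars. The breeds did not overlap, and the spread among the wild boars was small. PFKFB2 and PFKFB3 make and remove fructose 2,6-bisphosphate, the activator of phosphofructokinase. PFKFB2 averaged 2.56 ± 0.61 FPKM in Rongchang pigs and 2.64 ± 0.15 FPKM in wild boars, and PFKFB3 averaged 7.48 ± 1.15 and 8.01 ± 2.40 FPKM in the same order.

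From aldolase to pyruvate kinase, 8 of the 9 listed genes had a row. GAPDH, which makes the first NADH of the pathway, stood at 1469, 1167 and 2193 FPKM in Rongchang pigs and 1465, 1106 and 1664 FPKM in wild boars. Animal 2 was lowest and animal 3 highest in both breeds, and the log2 difference was 0.16 ± 0.31 SE. ALDOC, the aldolase of brain, averaged 789 ± 106 FPKM in Rongchang pigs and 717 ± 126 FPKM in wild boars. TPI1, which interconverts the triose phosphates, averaged 377 ± 121 FPKM in Rongchang pigs and 289 ± 61.7 FPKM in wild boars. PGK1, the first ATP-forming enzyme, averaged 161 ± 35.9 FPKM in Rongchang pigs and 163 ± 29.7 FPKM in wild boars.

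PGAM1, a phosphoglycerate mutase, stood at 274, 258 and 401 FPKM in Rongchang pigs and 213, 247 and 267 FPKM in wild boars. Rongchang 3 lay far above the other 5 libraries, and the breeds overlapped (log2 difference 0.34 ± 0.23 SE). ENO1, the widespread enolase, stood at 168, 158 and 165 FPKM in Rongchang pigs and 126, 134 and 138 FPKM in wild boars, with no overlap (0.30 ± 0.16 SE). ENO2, the enolase of neurons, averaged 279.9 ± 37.2 FPKM in Rongchang pigs and 245 ± 45.7 FPKM in wild boars. PKM, pyruvate kinase, averaged 391 ± 41.4 FPKM in Rongchang pigs and 339 ± 26.5 FPKM in wild boars. Its splice forms cannot be told apart in values per gene.

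LDHA, the lactate dehydrogenase subunit typical of muscle, stood at 68.6, 69.0 and 91.2 FPKM in Rongchang pigs and 70.9, 59.0 and 66.7 FPKM in wild boars, with overlap. PDHA1, the catalytic subunit of the pyruvate dehydrogenase complex, stood at 52.4, 58.2 and 65.7 FPKM in Rongchang pigs and 50.2, 54.8 and 49.1 FPKM in wild boars. These values overlapped too (log2 difference 0.19 ± 0.16 SE). DLAT, the acetyl-transferring core of the complex, stood at 21.1, 23.3 and 24.8 FPKM in Rongchang pigs and 18.4, 23.4 and 20.4 FPKM in wild boars (0.15 ± 0.16 SE). PDHB, the partner of PDHA1, averaged 43 ± 6.41 FPKM in Rongchang pigs and 39.7 ± 5.16 FPKM in wild boars. DLD, the dihydrolipoamide dehydrogenase shared by several such complexes, averaged 49.8 ± 2.45 and 48.5 ± 2.73 FPKM in Rongchang pigs and wild boars.

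The pyruvate dehydrogenase kinases switch that complex off. PDK2 was the most abundant at 51.8, 74.7 and 78.3 FPKM in Rongchang pigs and 52.7, 75.7 and 53.1 FPKM in wild boars, with full overlap (log2 difference 0.17 ± 0.23 SE). PDK1 stood at 7.28, 8.57 and 10.4 FPKM in Rongchang pigs and 8.48, 5.13 and 4.78 FPKM in wild boars, where wild boar 1 lay within the Rongchang range (0.47 ± 0.22 SE). PDK4, known as a gene of fasting and fat use, averaged 18.9 ± 10.2 FPKM in Rongchang pigs and 22.9 ± 9.39 FPKM in wild boars. Animal 1 was the lowest of its breed in both, at 7.19 FPKM in Rongchang 1 and 12.3 FPKM in wild boar 1. Its highest library was 4.18 times its lowest, the widest range of the 43 genes, whose median was 1.55. PDK3 averaged 6.69 ± 1.64 FPKM in Rongchang pigs and 5.92 ± 1.38 FPKM in wild boars.

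In the citrate cycle and its cytosolic partners, 12 of 14 listed genes had a row. MDH1, the cytosolic malate dehydrogenase of the malate-aspartate shuttle, was the most abundant at 153, 172 and 257 FPKM in Rongchang pigs and 138, 162 and 175 FPKM in wild boars. Rongchang 3 stood above the rest, and the remaining libraries overlapped. MDH2, its mitochondrial counterpart, averaged 84.8 ± 12.6 FPKM in Rongchang pigs and 78.1 ± 7.80 FPKM in wild boars. IDH2, the mitochondrial NADP-dependent isocitrate dehydrogenase, stood at 52.6, 43.8 and 53.1 FPKM in Rongchang pigs and 39.9, 40.5 and 43.1 FPKM in wild boars. The breeds did not overlap, although Rongchang 2 and wild boar 3 were close (log2 difference 0.27 ± 0.16 SE).

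IDH3G, a regulatory subunit of the NAD-dependent isocitrate dehydrogenase, stood at 40.8, 40.4 and 51.8 FPKM in Rongchang pigs and 35.8, 38.4 and 40.3 FPKM in wild boars. Rongchang 2 and wild boar 3 all but touched (0.20 ± 0.16 SE). IDH3B, the other regulatory subunit, averaged 16.8 ± 3.44 FPKM in Rongchang pigs and 14.0 ± 1.67 FPKM in wild boars, and the cytosolic IDH1 averaged 15.6 ± 5.12 and 15.8 ± 1.82 FPKM. DLST, the succinyl-transferring core of the oxoglutarate dehydrogenase complex, stood at 20.8, 25.2 and 29.9 FPKM in Rongchang pigs and 19.3, 24.6 and 19.8 FPKM in wild boars, with overlap (0.24 ± 0.18 SE). OGDH, which starts that reaction, averaged 35.4 ± 2.60 FPKM in Rongchang pigs and 34 ± 3.48 FPKM in wild boars.

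Succinyl-CoA ligase pairs the shared alpha subunit SUCLG1 with an ATP-forming or a GTP-forming beta subunit. SUCLG1 averaged 85.4 ± 15.7 FPKM in Rongchang pigs and 75.7 ± 16.5 FPKM in wild boars. The ATP-forming SUCLA2 averaged 60.4 ± 10.9 FPKM in Rongchang pigs and 54.5 ± 5.11 FPKM in wild boars, and the GTP-forming SUCLG2 16.1 ± 4.08 and 14.8 ± 3.92 FPKM. FH, fumarase, averaged 48.1 ± 4.14 FPKM in Rongchang pigs and 42.8 ± 1.86 FPKM in wild boars.

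Pyruvate carboxylase (PC), which refills the cycle and is known as an astrocyte enzyme, stood at 26.4, 44.3 and 36.5 FPKM in Rongchang pigs and 24.8, 35.9 and 25.9 FPKM in wild boars. Animal 2 was highest in both breeds and the ranges overlapped. PCK2, the mitochondrial phosphoenolpyruvate carboxykinase, averaged 1.10 ± 0.19 FPKM in Rongchang pigs and 1.18 ± 0.17 FPKM in wild boars. PGD, the second NADPH-forming enzyme of the pentose phosphate pathway, stood at 25.4, 25.4 and 27.0 FPKM in Rongchang pigs and 21.8, 22.5 and 19.8 FPKM in wild boars, with no overlap (log2 difference 0.27 ± 0.14 SE).

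Glycogen is broken down by phosphorylases. PYGB, the brain form, stood at 64.0, 75.3 and 76.3 FPKM in Rongchang pigs and 52.3, 76.1 and 56.0 FPKM in wild boars, where wild boar 2 lay within the Rongchang range. PYGM (ENSSSCG00000013022), the muscle form that astrocytes also make, stood at 47.6, 40.0 and 42.7 FPKM in Rongchang pigs and 30.5, 30.7 and 33.6 FPKM in wild boars. The breeds did not overlap. GYS1, the glycogen synthase of muscle and brain, averaged 4.58 ± 0.33 FPKM in Rongchang pigs and 4.15 ± 1.19 FPKM in wild boars.

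Shares within an enzyme family show which paralogue a brain uses at the messenger level, and FPKM allows this since it is scaled by transcript length. Shares were formed for 10 families whose listed genes all had a row, and are given as a description with no test. Pyruvate kinase FPKM came almost wholly from PKM, with at most 0.03% from the liver and red-cell gene PKLR. PGAM1 held 97.2% ± 0.76 of phosphoglycerate mutase FPKM in Rongchang pigs and 96.8% ± 0.83 in wild boars, the rest being the muscle form PGAM2.

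Other families were mixed. PFKM held 53.5% ± 1.38 of phosphofructokinase FPKM in Rongchang pigs and 56.1% ± 1.82 in wild boars, and PFKP held 36.8% ± 2.92 and 36.4% ± 3.41. PFKL held 11.2%, 8.03% and 10.1% in Rongchang pigs and 9.32%, 5.76% and 7.52% in wild boars. These shares overlapped between the breeds, although each Rongchang library lay above the wild boar library of the same number. ENO2 held 62.4% ± 3.53 of enolase FPKM in Rongchang pigs and 63.7% ± 3.56 in wild boars, with ENO1 at 36.7% ± 3.85 and 35.1% ± 3.54. The muscle enolase ENO3 stayed between 0.38% and 1.77%.

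PFKFB1, the bifunctional enzyme named for liver, is not among the 43 genes and had about as much FPKM as PFKFB3. It held 41.5% ± 4.36 of that family's FPKM in Rongchang pigs and 40.3% ± 4.06 in wild boars, beside 35.1% ± 5.25 and 36.4% ± 4.26 for PFKFB3. PDK2 held 67.3% ± 4.23 of the pyruvate dehydrogenase kinase FPKM in Rongchang pigs and 63.3% ± 5.41 in wild boars. The share of PDK4 ran from 10% to 32.4% and was lower in the Rongchang library of every same-numbered pair. PYGB led the phosphorylases at 54.2% ± 4.98 in Rongchang pigs and 55.4% ± 6.25 in wild boars. PYGM held 32.7% ± 3.15 and 28.8% ± 3.19, and the liver form PYGL 13.1% ± 2.93 and 15.8% ± 3.17.

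SUCLA2 held 79.1% ± 3.30 of succinyl-CoA ligase beta FPKM in Rongchang pigs and 78.7% ± 4.72 in wild boars. MDH1 held 69.2% ± 3.14 of malate dehydrogenase FPKM in Rongchang pigs and 66.9% ± 1.93 in wild boars. OGDH held 79.7% ± 2.70 over its paralogue OGDHL in Rongchang pigs and 82.3% ± 2.33 in wild boars. In none of these 10 families did a paralogue's share separate the breeds without overlap. A share that went one way in every same-numbered pair was not particular to PFKL and PDK4. ENO1, PGAM1, OGDHL and PYGM, like PFKL, had a higher share in the Rongchang library each time. PFKM, PFKFB3, ENO2, PGAM2 and OGDH, like PDK4, had a lower one. Shares of a family add up to its whole, so a higher share of PGAM1 or OGDHL forces a lower one of PGAM2 or OGDH. The higher and lower shares are therefore not separate observations. In bulk tissue, fewer cells of a type and less RNA per cell cannot be told apart, and this holds for every share and difference given here.

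**Figure D2:**
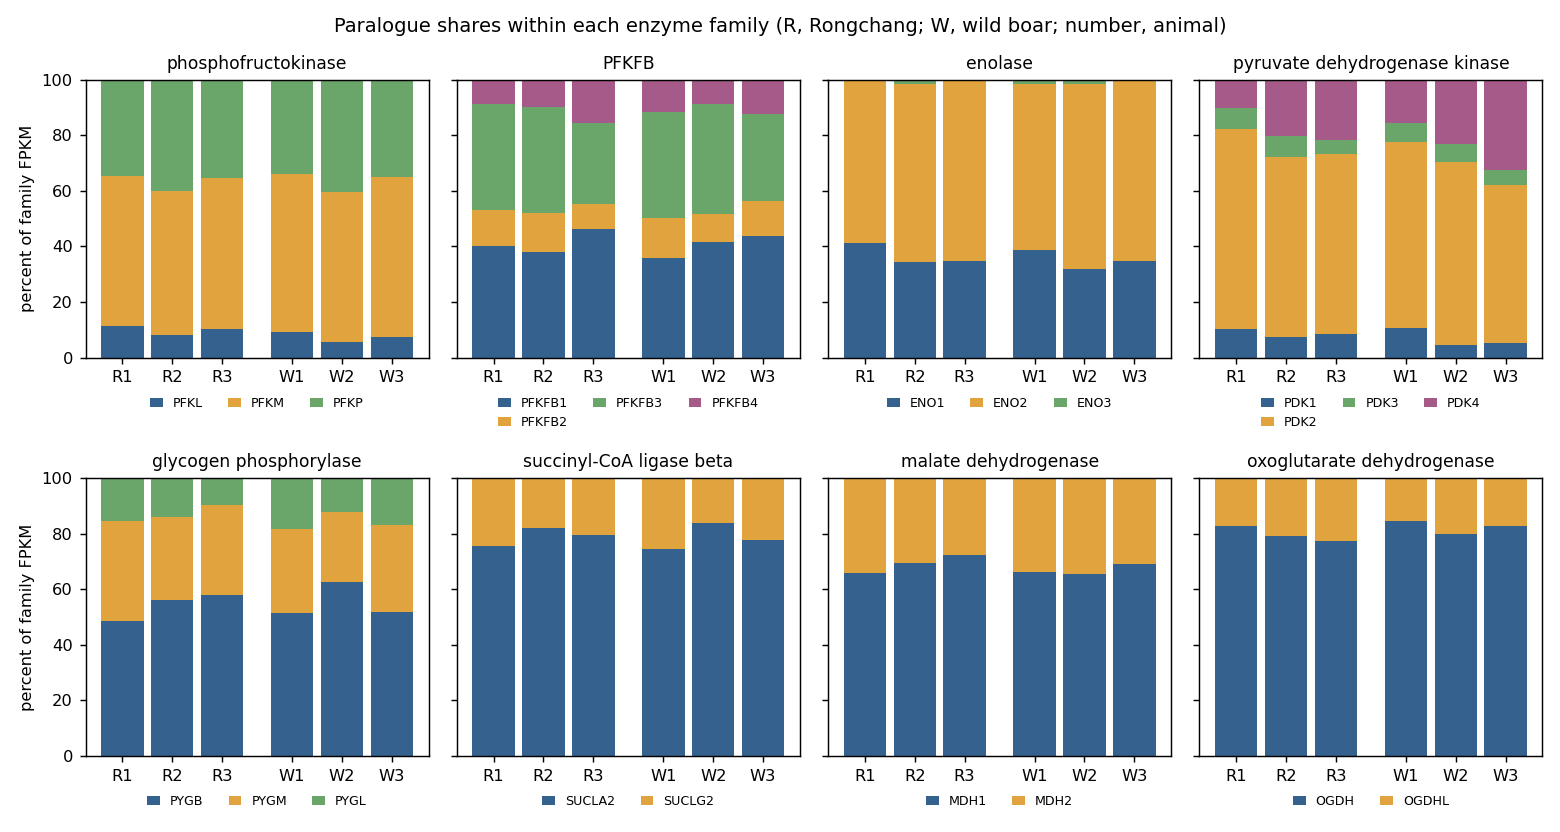
Percent of each family's FPKM held by each paralogue, 1 stacked bar per library (R1 to R3 Rongchang, W1 to W3 wild boar), for 8 families. OGDH fills 77.3% to 84.5% of the oxoglutarate dehydrogenase bars, while phosphofructokinase, PFKFB and glycogen phosphorylase bars are mixed in both breeds.

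No member passed the test between the breeds. In limma over 13152 genes, 0 of the 43 had an adjusted p under 0.05, and their adjusted p ran from 0.724 to 0.985. Over all genes 1 was called, higher in Rongchang pigs (0.0076%), and it is not a member. At an unadjusted p under 0.05, 2 members stood higher in Rongchang pigs (4.65%), against a background of 5.42%, and 0 stood lower, against 0.578%. The breeds did not overlap for 6 members, all higher in Rongchang pigs (14%), against 11.4% of all genes, and 0 were apart in the lower direction, against 1.12%. These shares are close to the background. The 43 intervals in the plot of differences are wide, reaching from −0.40 to 0.59 for HK1 and from −1.49 to 0.78 for PDK4, so differences of such sizes cannot be told from none with 3 animals per breed.

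PFKL had the smallest p of the list, with a log2 difference of 0.60 ± 0.14 SE (95% interval 0.27 to 0.93, unadjusted p = 0.00282, limma adjusted p = 0.724). Between animals of the same number it was 0.55, 0.52 and 0.73. PYGM had a log2 difference of 0.44 ± 0.15 SE (95% interval 0.10 to 0.79, unadjusted p = 0.0181, limma adjusted p = 0.789), or 0.62, 0.37 and 0.34 by number. The unadjusted limma p of PYGM was above 0.05 after median scaling (0.114), after quantile normalization (0.071), and without Rongchang 1 (0.0812) or wild boar 1 (0.0566). Median scaling also brought the PYGM difference to 0.27. The p of PFKL stayed below 0.05 in all 19 alternatives run, with differences from 0.44 to 0.71.

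**Figure D3:**
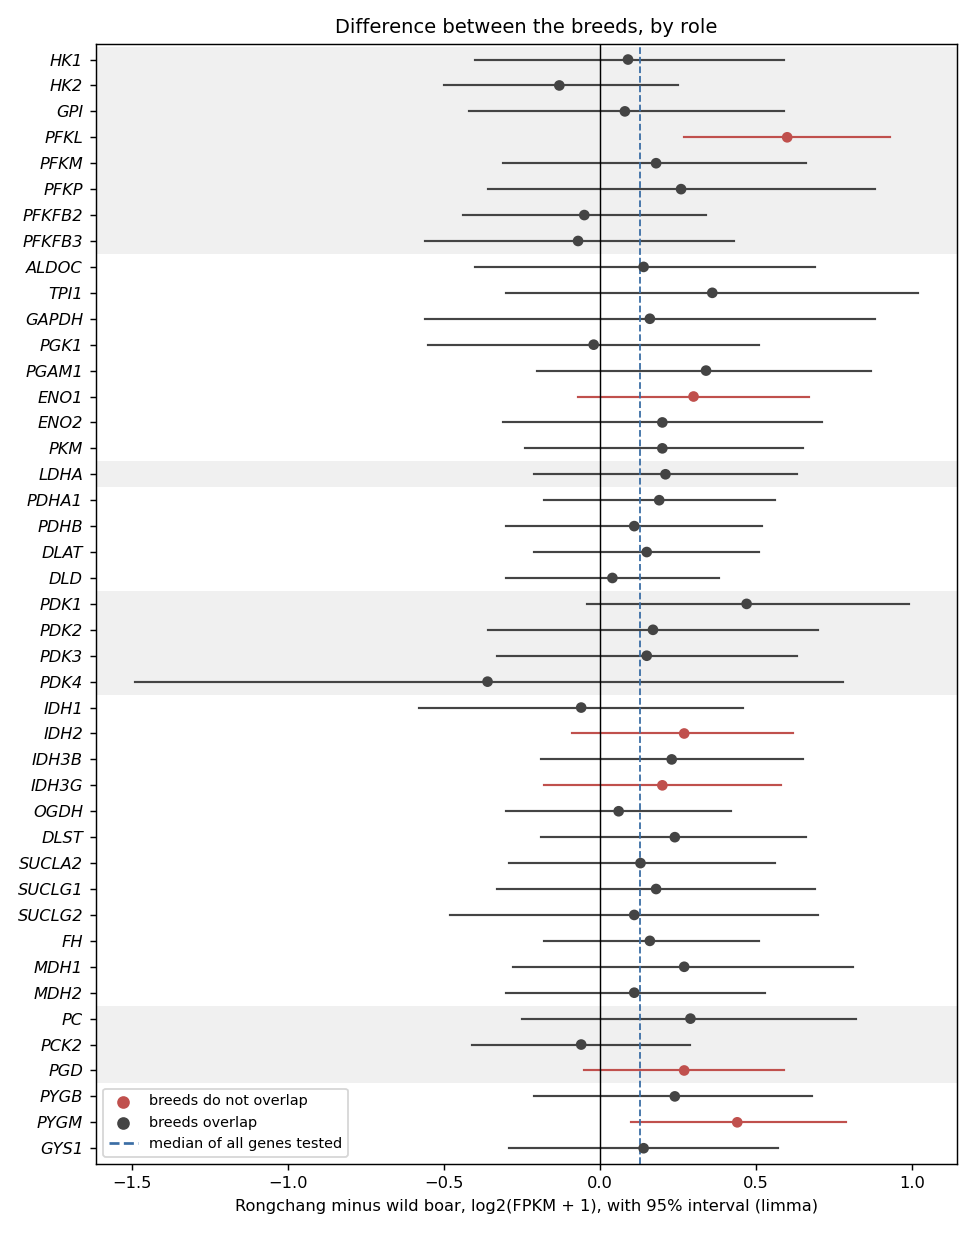
Rongchang minus wild boar for each gene in log2(FPKM + 1), with the 95% interval from limma; grey bands mark roles, red points genes whose breeds do not overlap, and the dashed line the median of all genes tested at 0.13. PFKL at 0.60 and PYGM at 0.44 are the 2 intervals that leave out 0.

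Most members lay on the Rongchang side. Of the 43, 36 had a difference above 0 (83.7%), against 77.9% of all genes tested. The median member lay at 0.17 and the median gene at 0.13, so the list lay near the table as a whole. After each library was scaled to the same median, the median gene lay at −0.02 and the median member at 0.00. Of the 43, 22 then lay above 0 (51.2%), against 46.4% of all genes. PFKL, PGD and PYGM were then the 3 members whose breeds did not overlap, all higher in Rongchang pigs (6.98%), against 3.87% of all genes, and 0 were apart in the lower direction, against 5.03%. At an unadjusted p under 0.05 in limma, PFKL alone was then higher (2.33%), against 1.87% of all genes, and 0 were lower, against 1.89%. ENO1, IDH2 and IDH3G no longer stood apart.

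By role, the upper steps of glycolysis had 5 of 8 genes above 0 (median 0.09), and the genes from aldolase to pyruvate kinase 7 of 8 (median 0.20). All 4 genes of the pyruvate dehydrogenase complex lay above 0 (median 0.13), and 3 of its 4 kinases did (median 0.16). In the citrate cycle 11 of 12 did (median 0.17), and all 3 glycogen genes did (median 0.24). LDHA lay at 0.21, and PC and PGD but not PCK2 lay above 0. HK2, PFKFB2, PFKFB3, PGK1, PDK4, IDH1 and PCK2 were the 7 members below 0, between −0.36 and −0.02. The lowest, PDK4 at −0.36, lay at 0.19 without Rongchang 1 and at −0.84 with array weights.

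**Figure D4:**
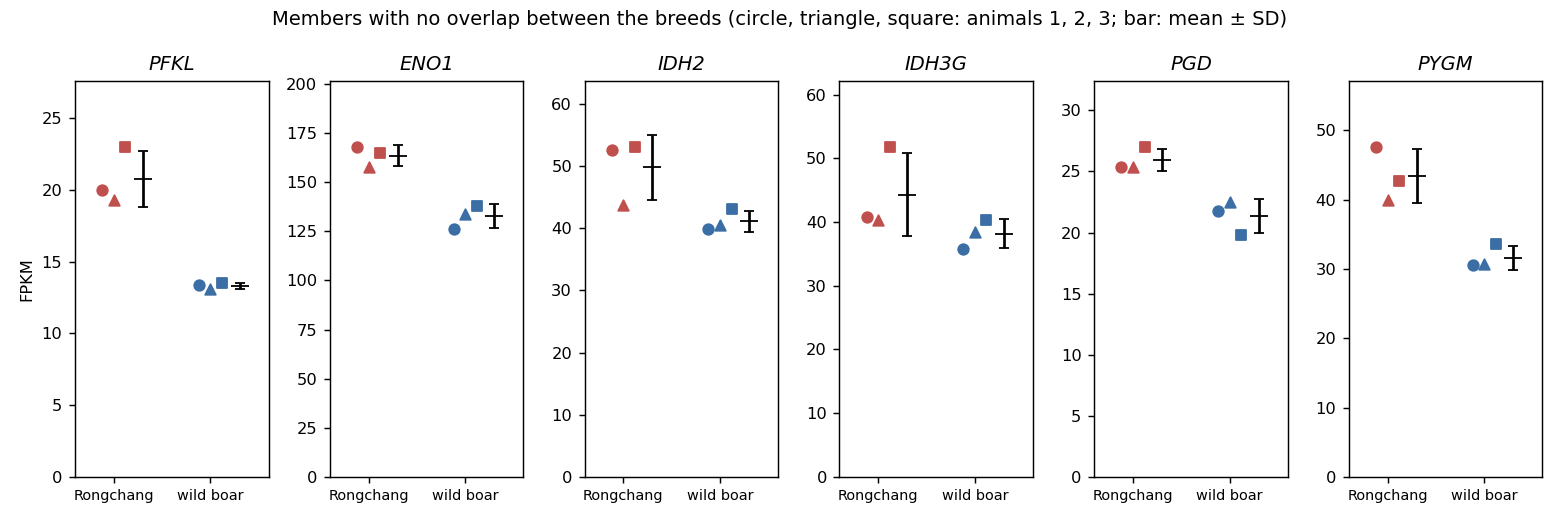
FPKM per library, from 0, for the 6 members whose breeds do not overlap, with the mean ± SD of 3 animals beside the points (Rongchang left, wild boar right). Relative to its level, PFKL shows the widest gap, 19.3 to 23.0 against 13.1 to 13.5 FPKM. IDH3G shows the narrowest, with 40.4 in Rongchang 2 and 40.3 in wild boar 3.

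Markers of cell types are given beside these values. ALDH1L1, an astrocyte marker, stood at 7.73, 6.78 and 7.61 FPKM in Rongchang pigs and 5.62, 3.83 and 2.84 FPKM in wild boars. Other astrocyte markers overlapped, such as GFAP at 492, 441 and 483 FPKM in Rongchang pigs and 512, 487 and 525 FPKM in wild boars. The endothelial and mural markers with a row (3 of 6, PECAM1, FLT1 and PDGFRB) summed to 15.2 to 20.5 FPKM in Rongchang pigs and 23.6 to 25.7 FPKM in wild boars. ACTA1, the only skeletal muscle marker of 6 with a row, stood at 4.33, 45.7 and 7.21 FPKM in Rongchang pigs and 16.9, 47.3 and 4.23 FPKM in wild boars. Summed oligodendrocyte markers (4 of 6 with a row) ran from 1595 to 1893 FPKM in Rongchang pigs and from 1229.8 to 2027 FPKM in wild boars. Summed blood markers (3 of 4) ran from 68.5 to 191 FPKM in Rongchang pigs and from 58.5 to 276 FPKM in wild boars, with HBM at 0 in wild boar 2. Genes of the hepatocyte list (4 of 4), of which brain also makes TF, summed to 307 to 440.3 FPKM in Rongchang pigs and 309 to 507 FPKM in wild boars. The part of cell makeup in the differences of PFKL and PYGM was not tested.

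The rest of the pathway was followed through 81 further genes, of which 59 had a row and 52 were tested. None passed in limma (0 of 52), with adjusted p from 0.766 to 0.997. At an unadjusted p under 0.05, 5 of the 52 stood higher in Rongchang pigs, against 5.42% of all genes, and 0 lower, against 0.578%. The median difference over the 52 was 0.16, against 0.13 over all genes tested. GAA, the lysosomal enzyme that digests glycogen, stood at 4.29, 3.84 and 4.70 FPKM in Rongchang pigs and 2.47, 3.10 and 2.27 FPKM in wild boars (log2 difference 0.55 ± 0.15 SE). PHKG1, a catalytic subunit of the kinase that activates glycogen phosphorylase, stood at 1.81, 2.10 and 1.93 FPKM in Rongchang pigs and 1.09, 0.85 and 1.29 FPKM in wild boars (0.51 ± 0.15 SE). Both showed no overlap. They come from a list of 22 other glycogen genes, of which 16 were tested, 15 above 0, with a median of 0.21. The most abundant of that list was GSK3A, a kinase that inhibits glycogen synthase, at 77.8 ± 4.81 FPKM in Rongchang pigs and 72.9 ± 8.05 FPKM in wild boars.

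Among 11 other genes of glycolysis and glucose formation tested, 8 lay above 0, with a median of 0.08. LDHD, which oxidises D-lactate, stood at 5.45, 3.8 and 6.68 FPKM in Rongchang pigs and 3.53, 3.09 and 2.66 FPKM in wild boars, with no overlap (log2 difference 0.60 ± 0.20 SE). G6PC3, a glucose 6-phosphatase found in most tissues, was the most abundant at 16.2 ± 2.67 FPKM in Rongchang pigs and 13.1 ± 0.57 FPKM in wild boars. Of 17 other genes of pyruvate entry and the citrate cycle, 14 lay above 0 (median 0.13) and 0 had an unadjusted p under 0.05 in limma. The most abundant was GLUD1, glutamate dehydrogenase, at 156 ± 1.26 FPKM in Rongchang pigs and 167 ± 24.2 FPKM in wild boars. All 5 other pentose phosphate genes tested lay above 0 (median 0.28), led in level by transaldolase, TALDO1, at 71.0 ± 18.5 FPKM in Rongchang pigs and 57.2 ± 1.96 FPKM in wild boars.

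Of 9 transporters listed, 5 had a row and 3 were tested. SLC2A13, which carries myo-inositol rather than glucose, stood at 10.1, 17.1 and 8.87 FPKM in Rongchang pigs and 4.79, 9.91 and 5.86 FPKM in wild boars. Wild boar 2 lay within the Rongchang range (log2 difference 0.73 ± 0.30 SE). SLC16A3, a lactate exporter, stood at 1.67, 2.74 and 4.46 FPKM in Rongchang pigs and 1.42, 1.37 and 1.32 FPKM in wild boars, with no overlap (0.68 ± 0.25 SE).

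Libraries of the same number deviated together in these genes. TPI1, GAPDH, PGK1 and ALDOC were lowest in animal 2 of both breeds, as were PFKL, DLD, IDH1, IDH3B, SUCLG1, SUCLG2 and FH. HK1, GPI, PFKM, PFKP, PFKFB2, PFKFB3, PDK3, PC and GYS1 were highest in animal 2 of both. Together these 11 and 9 genes made up 25.6% and 20.9% of the members, against 21.4% and 28.5% of all genes tested. TPI1 in animal 2 differed from the mean of animals 1 and 3 by −0.69 log2 units in Rongchang pigs and −0.50 in wild boars. PFKP differed from it by 0.44 in Rongchang pigs and 0.72 in wild boars. Genes of one pathway thus lay on opposite sides in the same animals.

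Across the 43 genes, the deviations of each library from its breed mean correlated at 0.66, 0.86 and 0.70 between animals numbered 1, 2 and 3, and at −0.59 to −0.07 between unlike numbers. Deviations from a breed mean cancel within that breed for each gene. Positive values at like numbers therefore bring negative ones at unlike numbers, which add no evidence of pairing. Genes are not independent replicates, and all genes of a library share its preparation and depth, so these correlations are descriptions. Rongchang 3 held the highest value of the 6 libraries for 28 members (65.1%), against 34.5% of all genes, and wild boar 1 the lowest for 20 (46.5%), against 28.2%. Rongchang 3 also had the smallest mitochondrial share of FPKM and wild boar 1 the largest. Of the FPKM outside mitochondrially encoded genes, the members held 1.61%, 1.49% and 1.76% in Rongchang 1 to 3. In wild boar 1 to 3 they held 1.32%, 1.4% and 1.65%. With the mitochondrially encoded genes left out and the libraries rescaled, the median difference of the members was 0.14. The part of the mitochondrial share in the level of each gene was not tested. The median difference of the members was 0.10 without Rongchang 3 and 0.24 without Rongchang 1.

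Within same-numbered pairs, 24 members were higher in the Rongchang animal in all 3 pairs (55.8%), against 38.5% of all genes. The 2 that were lower in all 3 pairs were HK2 and PDK4 (4.65%), against 5.1%. With the animal number as a replicate block, 10 members had an unadjusted p under 0.05, 9 higher in Rongchang pigs (20.9%, against 16% of all genes) and PDK4 lower (2.33%, against 1.41%). The 9 were PFKL, PYGM, ENO1, IDH2, PC, PFKP, PGAM1, PGD and TPI1. The pairing was chosen from these same libraries, so p-values with the block may be too small. None of the 43 passed over all genes with the block either (limma, adjusted p of 0.228 for both PFKL and PYGM). With the block and median scaling, PFKL and PYGM were higher (4.65%, against 5.02%) and PDK4 lower (2.33%, against 5.47%).

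**Figure D5:**
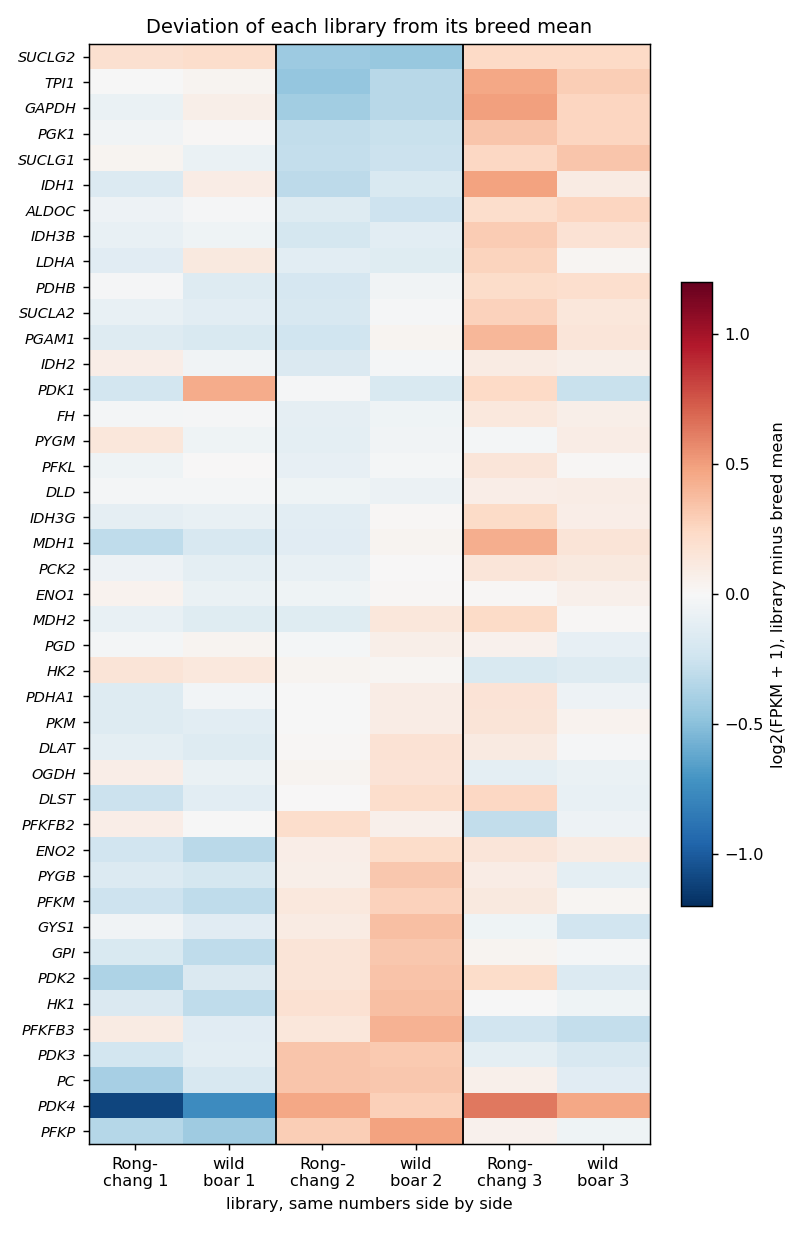
Each library's log2(FPKM + 1) minus the mean of its breed for the 43 members (rows, ordered by the values in the animals numbered 2), with libraries of the same number side by side. Red is above and blue below the breed mean; TPI1 and GAPDH are blue and PFKP is red in both animals numbered 2, and PDK4 is lowest in both animals numbered 1.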

How the data were processed

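Per the labels' protocols, poly(A) RNA was made into dUTP strand-marked libraries and read as 100-bp pairs on an Illumina HiSeq instrument. The submitters' processing notes name TopHat2 2.0.11, Cufflinks 2.2.1 and Cuffdiff, with no role or order. No source used here gives the genome build, annotation or strand setting, so coordinates are left out. Genes with near-identical copies (GAPDH has many processed ones) or antisense partners are uncertain. The deposited table holds 1 value per gene and library, read as FPKM from the tools and the values, since its header names no unit. Depth is unknown.

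Symbols were matched for 10937 of 18225 identifiers (60.0%). On log2(FPKM + 1), limma 3.58.1 in R 4.3.3 was run two-sided with a mean-variance trend on the 13152 genes that passed the filter, with Benjamini-Hochberg adjustment over all of them and a threshold of 0.05. The pseudocount of 1 understates differences of low genes. The fit was tested on simulated data. Beyond a number, the labels do not tell the animals apart, and p-values cover only the spread between these libraries, which may be technical. Shares among hexokinases are not reported here. Alternatives changed the pseudocount, filter, scaling, test and libraries.

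The members and lists were chosen with earlier results of these data known. Values per library are given for members with an unadjusted p under 0.05, the most abundant of each role and the 2 with the smallest p in roles with at least 4 tested; further members were added after their values were seen. Other pathway genes are named by an unadjusted p under 0.05 or as the most abundant of their list, besides the paralogues in family shares (PFKFB1, PGAM2, ENO3, PKLR, OGDHL and PYGL) and HK3, chosen after its values were seen. Over all genes tested, deviations from the breed mean correlated at 0.28, 0.59 and 0.37 between animals sharing a number, each above 0.1. On the data's evidence alone, the numbers were therefore used as pairs in the alternative fits with a replicate block. A block chosen from the same libraries it is then applied to can make p-values too small, and the size of this was not tested. The main limma fit used no block, so its p-values, SEs and intervals are unpaired. The unlike pair of Rongchang 1 and wild boar 3 reached 0.12.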

Additional observations from a re-analysis of the deposited data

How the results depend on the processing

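The number of members called was 0 in limma under every alternative run, with a lowest adjusted p of 0.228 (replicate block, PFKL and PYGM). The replicate block, that is the pairing by number, cannot change a log2 difference, since each number occurs once in each breed. The members' median of 0.17 was therefore the same with the block by construction. The members called stayed at 0 and the genes called at 1, and the block changed no call. The number of genes called over the whole table was 1, and 3 with a pseudocount of 0.1, 10 after rescaling to TPM, 0 with a mean of at least 5 FPKM and 0 without the libraries numbered 2 of both breeds. Leaving out 1 library at a time gave 0 (without Rongchang 3) to 4 (without wild boar 1) genes called, 0 members called, and a members' median of 0.10 to 0.24. The causes were not tested. Genes with an unadjusted limma p under 0.05 numbered 789, and 2289 with the replicate block. Members so marked numbered 2, and 10 with the block. The counts with the block rest on a pairing chosen from these same libraries and may be too high. The difference of 20 members, none of them called, changed sign under at least 1 alternative, and 23 kept it in all alternatives run for them. The log2 differences that changed sign after median scaling, with or without the replicate block, were HK1 −0.08, GPI −0.09, ALDOC −0.03, GAPDH −0.01, PDHB −0.06, DLAT −0.01, DLD −0.13, PDK2 0.00, OGDH −0.11, SUCLA2 −0.04, SUCLG2 −0.05, FH −0.01, MDH2 −0.06 and GYS1 0.00 (0.00 being a small value after rounding). After quantile normalization they were HK1 −0.04, GPI −0.02, GAPDH −0.02, PDHB −0.04, DLD −0.10, OGDH −0.08, SUCLA2 −0.01, SUCLG2 −0.03 and MDH2 −0.01. After rescaling to TPM they were PFKFB2 0.02, PFKFB3 0.02, PGK1 0.08 and IDH1 0.03, with array weights PFKFB2 0.02, PFKFB3 0.12 and DLD 0.00, and without the libraries numbered 2 PFKFB3 0.07 and IDH1 0.00. Leaving out 1 library at a time, the members that changed sign ranged as follows in log2 difference: DLD 0.00 to 0.08, GAPDH −0.09 to 0.37, GPI −0.07 to 0.25, HK1 −0.06 to 0.27, IDH1 −0.30 to 0.10, MDH2 0.00 to 0.19, PDK3 −0.02 to 0.31, PDK4 −0.73 to 0.19, PFKFB2 −0.15 to 0.10, PFKFB3 −0.21 to 0.14, PGK1 −0.19 to 0.12, SUCLA2 −0.01 to 0.23, SUCLG2 −0.12 to 0.33. PFKL lay between 0.44 and 0.71 and PYGM between 0.27 and 0.54. Shares within families moved by less than 1 SD in all 216 alternative values, but most of these could not have moved further. Leaving out 1 library at a time cannot shift a share difference by 1 SD with 3 animals per breed. Summing rows repeated the main value. Only the values without the libraries numbered 2 could have moved by 1 SD, and they did not. No symbol had several rows, so summing rows changed nothing. With 3 animals per breed and unknown depth, small differences cannot be resolved.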

Other observations

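GAPDH, a common reference transcript in brain expression assays, was among the less steady members. Its highest library was 1.98 times its lowest, and it varied 1.88-fold among the Rongchang pigs and 1.5-fold among the wild boars. DLD varied least, 1.14-fold over the 6 libraries, followed by OGDH at 1.19-fold and FH at 1.28-fold. The median member varied 1.55-fold, against 1.69-fold for the 13035 tested genes with a value above 0 in every library.

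The ratio of GAPDH to TPI1, chosen after the values were seen, was 4.04, 4.42 and 4.35 in Rongchang pigs and 5.02, 4.91 and 4.77 in wild boars. The breeds did not overlap in this ratio, while each gene overlapped by itself. It was 1 of 6 ratios formed, and the breeds overlapped in the other 5, which were PFKL to PFKM, PFKL to PFKP, PYGM to PYGB, ENO1 to ENO2 and IDH2 to IDH1. HK3, the myeloid hexokinase, named after its values were seen, was the other pathway gene whose breeds stood apart in the opposite direction, at 3.49, 2.40 and 4.05 FPKM in Rongchang pigs and 4.24, 4.17 and 4.92 FPKM in wild boars (log2 difference −0.35 ± 0.18 SE, limma adjusted p = 0.789). Summed microglia markers overlapped, at 62.0 to 112 FPKM in Rongchang pigs and 48.8 to 112 FPKM in wild boars.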
